A study of Mus musculus with 14 samples.

Results

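The comparison described here is 6 weeks of voluntary wheel running against no running in the triceps muscle of male FLExDUX4 mice. It rests on 7 of the 14 mice of the series, 4 FLExDUX4 runners and 3 FLExDUX4 no-running controls, each taken into its group by the genotype and treatment written in its label. The other 7 mice, 4 wild-type (WT) runners and 3 WT controls, are littermates that went through the same pair of conditions, and they serve here as the reference for how a muscle without the transgene differed after running. FLExDUX4 mice carry a human DUX4 transgene in an inverted cassette that Cre recombinase can turn on, and the labels name no Cre driver for any group. No age, running distance or hour of tissue collection is given in the labels. RNA from whole triceps was read as 3′ tags, at 3439957 to 6686356 gene counts per library in the FLExDUX4 runners and 3949656 to 6995811 in the FLExDUX4 controls. Levels are given as CPM, the counts of a gene scaled to a common library total with trimmed-mean factors, and always in the order of replicates 1 to 4 for runners and 1 to 3 for controls. The labels name each mouse as a separate animal.

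DUX4 is a transcription factor of the early embryo that is normally silent in adult muscle, and its misexpression in skeletal muscle underlies facioscapulohumeral muscular dystrophy. Endurance running is known to move fast glycolytic muscle toward oxidative metabolism: fibres change from the Myh4 myosin toward Myh1 and Myh2, mitochondria and fatty acid use increase, and capillaries grow. The question of the comparison is how far the muscle of the DUX4 model differed after such training. The mouse count table holds no row for the human transgene, so the targeted gene itself was not analysed here.

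The triceps of FLExDUX4 runners differed from that of FLExDUX4 controls in no single gene at an adjusted p under 0.05. Among the uncalled differences, 11 of 14 clock repressor and output genes had a log2 fold change below 0, Egln3 had one of 2.28 ± 0.54 (SE), and most genes of the lists of oxidative phosphorylation lay slightly above 0. Of 11088 genes tested with edgeR's quasi-likelihood test, 0 passed (0.0%), with a smallest Benjamini-Hochberg adjusted p of 0.365. At an unadjusted p under 0.05 there were 738 genes (6.66%), 400 higher in runners (3.61%) and 338 lower (3.05%). DESeq2 and limma-voom also called 0 genes, with smallest adjusted p values of 0.0626 and 0.408. An edgeR fit of the 7 FLExDUX4 libraries alone, with its own estimate of spread, called 6 of 9770 genes (0.0614%), which were Tef, Usp2, Per1, Per2 and Cep85l, all lower in runners, and Egln3, higher. Without WT runner 1, which enters the shared estimate of spread, the fit of all other libraries called Egln3 and Tef. The median standard error of a log2 fold change over all tested genes was 0.35, larger than the median difference of most gene lists. Single genes can have smaller errors, such as 0.15 for Ndufa1 and 0.14 for Sdhc. In the authors' deposited table, 4 of 7565 genes with an adjusted p passed 0.05: Egln3 was higher in runners, and Tef, Usp2 and Mylk2 were lower.

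The FLExDUX4 libraries did not separate cleanly by running. In a map of all libraries by classical scaling, FLExDUX4 control 1 stood apart from every other library on the second coordinate, at -67.08 against -6.36 to 24.1 for the rest, and 286 of the tested genes had no count in it, against 70 to 164 in the other libraries. Several genes and list medians are also given without it. On the first coordinate, FLExDUX4 runner 2 lay at -40.1 and FLExDUX4 runner 4 at 11.9, on the far side of FLExDUX4 controls 2 and 3 at 4.05 and 2.55. The WT groups did not overlap there, with WT runners at -36.25 to 5.16 and WT controls at 26.07 to 28.09. Muscle identity was checked with 7 tissue markers, whose summed level was 66187 to 91366.5 CPM in the FLExDUX4 libraries. Nppa, a marker of heart atrium, is among them and had no count. The sum mixes markers of muscle and of other tissue, so it cannot show an admixture of other tissue.

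**Figure D1:**
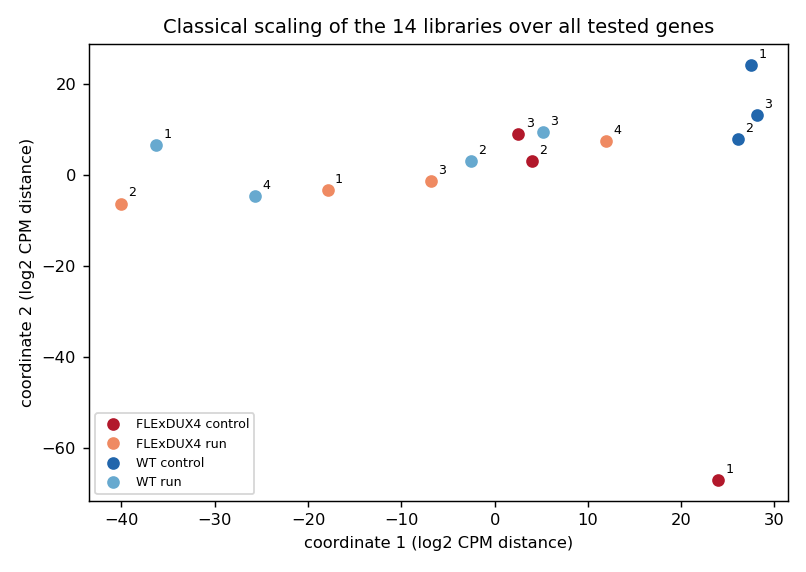
Classical scaling of the 14 libraries on log2 CPM of all tested genes, with the first coordinate on the horizontal axis and the second on the vertical axis, both as log2 CPM distances. Points are mice coloured by group and numbered by replicate. FLExDUX4 control 1 lies at -67.08 on the second coordinate, and FLExDUX4 runners 1, 2 and 3 lie to the left of FLExDUX4 controls 2 and 3, while runner 4 lies to their right.

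The circadian clock of muscle cells runs as a loop in which BMAL1 (gene Arntl) and CLOCK drive E-box genes, among them the Per and Cry repressors, the Nr1d1 and Nr1d2 repressors and the output factors Dbp, Tef and Hlf, whose protein products then act on D-box genes. Of 14 clock repressor and output genes, all tested, 11 had a log2 fold change below 0 in runners and 0 were called. At an unadjusted p under 0.05, 7 of the 14 were lower and 0 higher, against 3.05% lower among all genes. The median log2 fold change of the list was -0.68, against 0.01 over all tested genes, and -0.53 without FLExDUX4 control 1. The mean log2(CPM + 1) of the list was 4.93, 4.64 and 4.95 in the controls and 3.78, 3.97, 4.48 and 4.13 in the runners. All runners lay below all controls on that measure, by 0.75 on average, but the exact two-sided permutation test over the 7 mice gave p = 0.0571, and 0.612 after adjustment over 15 per-mouse measures. With 4 mice against 3 the smallest p possible is 0.0286, so after adjustment over 15 measures a single measure cannot pass 0.05 by itself. The adjusted values of these measures therefore cannot show that a difference is absent.

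Tef, a PAR bZIP transcription factor of the clock output, had the smallest p of all genes. It is annotated at chromosome 15, 81802421 to 81826863, on GRCm38. Tef read 112, 79.5 and 128 CPM in the controls and 44.1, 51.4, 64.4 and 61.9 CPM in the runners. All runners were below all controls, as were 3.45% of all genes tested, and the means were 107 ± 24.8 (SD, n = 3) and 55.5 ± 9.42 (SD, n = 4). The log2 fold change was -0.95 ± 0.20 (SE), with an edgeR adjusted p of 0.365. In WT mice it was -0.57 ± 0.20, adjusted p = 0.222 by the same edgeR fit.

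Usp2, a deubiquitinating enzyme whose transcript cycles with the clock, read 383, 299 and 375 CPM in the controls and 182, 139, 226 and 184 CPM in the runners. Its groups did not overlap, and the log2 fold change was -0.95 ± 0.23 (SE, edgeR adjusted p = 0.519). Per1 read 18.4, 21.9 and 10.9 CPM in the controls and 1.94, 2.96, 5.72 and 3.99 in the runners, and Per2 read 9.05, 4.24 and 24.8 and 1.75, 2.42, 2.11 and 1.57. These genes encode the period proteins that close the repressive arm of the loop. All runners lay below all controls for both genes, with log2 fold changes of -2.23 ± 0.74 for Per1 and -2.74 ± 0.83 for Per2 and edgeR adjusted p values of 0.644 and 0.6. The level of Per2 in the runners was near 2 CPM, so few reads stand behind it, and its fold change was -1.77 without FLExDUX4 control 3.

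Per3, the remaining period gene, read 44.2, 12.5 and 25.7 CPM in the controls and 6.80, 6.998, 15.7 and 11.4 CPM in the runners, with control 2 inside the range of the runners. Dbp, a PAR bZIP factor like Tef, read 102, 41.6 and 84.5 CPM in the controls and 8.55, 22.1, 49.1 and 22.4 CPM in the runners. Runner 3 alone overlapped the controls for Dbp, and the log2 fold change was -1.60 ± 0.64 (SE, edgeR adjusted p = 0.71). For Per3 it was -1.43 ± 0.54, and it came to -0.93 without FLExDUX4 control 1. Nr1d2, a nuclear receptor that represses Arntl, read 64.2, 41.9 and 67.2 CPM against 30.1, 30.7, 33.7 and 44.04 CPM. Its fold change was -0.73 ± 0.20 (edgeR adjusted p = 0.519), while its paralogue Nr1d1 gave 0.16 ± 0.19 with overlapping groups, and 0.06 without FLExDUX4 control 1. Ciart, another repressor of the loop, was at 6.31, 8.98 and 4.37 CPM in the controls and at 0.583, 0.807, 3.91 and 0 CPM in the runners, the last of these a library with no read.

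Arntl read 4.12, 15.96 and 5.92 CPM in the controls and 26.8, 11.8, 6.32 and 28.1 CPM in the runners, so runners 1 and 4 were above all controls and runners 2 and 3 were among them. The log2 fold change was 1.12 ± 0.49 (SE, edgeR adjusted p = 0.712). For Clock, its partner, the fold change was 0.63 ± 0.24 with an edgeR adjusted p of 0.644. Without FLExDUX4 control 2 the fold change of Arntl was 1.86. Of 7 activator genes listed, 4 were tested, 2 above 0 and 2 below, and 0 were called. At an unadjusted p under 0.05, 2 were higher, Arntl and Clock, and 1 was lower, Rora, a nuclear receptor that activates Arntl, at -0.35 ± 0.15 (edgeR adjusted p = 0.71). Rora was named after its values were seen. In WT mice the repressor list had a median log2 fold change of -0.62, and the median of the difference between the genotypes, FLExDUX4 minus WT, was 0.07. Of the 14 genes, 1 differed between the genotypes at an unadjusted p under 0.05, against 4.84% of all genes, and 0 at an adjusted p.

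**Figure D2:**
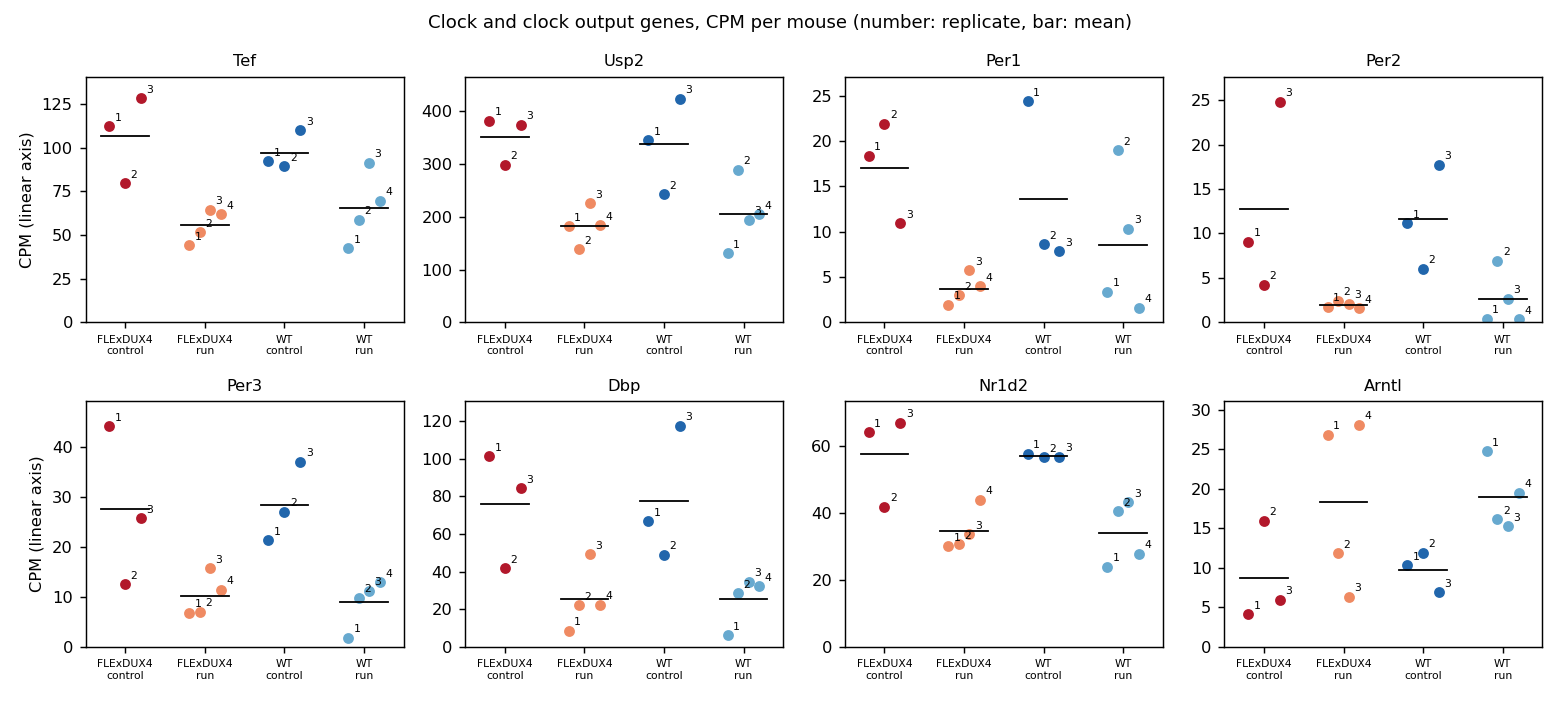
CPM per mouse on linear axes from 0 for 8 clock and clock output genes in the 4 groups, with points numbered by replicate and a bar at each group mean. In FLExDUX4 mice, Tef, Usp2, Per1 and Per2 are lower in every runner than in every control, while Per3, Dbp, Nr1d2 and Arntl overlap.

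To show the promoter letters behind this group, RefSeq promoters of GRCm38.p6 were searched for the E-box bound by BMAL1 and CLOCK (CACGTG, a palindrome) and for the D-box bound by PAR bZIP factors (TTATGTAA, on both strands). The window covers 250 bases before to 50 bases after each start. Of the 14 genes, 12 had a promoter in the table. CACGTG was in a promoter of 5 of the 12 and in 7.15% of 32851 promoters, and TTATGTAA was in 1 of the 12 and in 0.938% of all. The genes shown were chosen after their values were seen, as lower genes with a match. Capitals mark the matches, each sequence is given 5′ to 3′ on the strand of its gene, and a match is a description of the letters, not of a bound site. The windows are chr15:81802423-81802722 (plus strand) for Tef, chr11:69098699-69098998 (plus) for Per1, chr3:95882179-95882478 (minus) for Ciart and chr4:151044616-151044915 (minus) for Per3.
Tef: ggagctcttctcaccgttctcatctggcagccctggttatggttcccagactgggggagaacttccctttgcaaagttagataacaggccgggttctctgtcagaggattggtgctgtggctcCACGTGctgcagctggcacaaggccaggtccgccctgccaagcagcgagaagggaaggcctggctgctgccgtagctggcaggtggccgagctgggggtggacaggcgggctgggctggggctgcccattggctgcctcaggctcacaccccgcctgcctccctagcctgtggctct
Per1: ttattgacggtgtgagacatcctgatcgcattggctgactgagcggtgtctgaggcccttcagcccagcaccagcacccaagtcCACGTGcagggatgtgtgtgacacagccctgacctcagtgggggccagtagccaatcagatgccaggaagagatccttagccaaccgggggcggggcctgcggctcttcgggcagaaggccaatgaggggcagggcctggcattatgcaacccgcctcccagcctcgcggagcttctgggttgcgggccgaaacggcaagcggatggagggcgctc
Ciart: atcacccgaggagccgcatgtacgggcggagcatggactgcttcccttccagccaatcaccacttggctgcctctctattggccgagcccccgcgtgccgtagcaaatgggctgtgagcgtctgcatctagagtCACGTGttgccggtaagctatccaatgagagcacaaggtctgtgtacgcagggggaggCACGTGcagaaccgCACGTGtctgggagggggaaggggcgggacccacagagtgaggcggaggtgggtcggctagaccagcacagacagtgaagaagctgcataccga
Per3: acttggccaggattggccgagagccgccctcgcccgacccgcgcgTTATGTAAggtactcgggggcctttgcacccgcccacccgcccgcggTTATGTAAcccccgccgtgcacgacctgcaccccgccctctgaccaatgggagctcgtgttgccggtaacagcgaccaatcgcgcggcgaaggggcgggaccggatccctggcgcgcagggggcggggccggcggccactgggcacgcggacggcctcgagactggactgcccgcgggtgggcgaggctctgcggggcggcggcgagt
Tef and Per1 hold 1 E-box each in these windows, Ciart holds 3, and Per3 holds 2 D-boxes and no CACGTG. The table holds a second promoter of Per1 (chr11:69099902-69100201, plus), with no CACGTG, and of Tef (chr15:81811164-81811463, plus), with 1. No match of the letters was found in the windows of Dbp, Nr1d1, Nr1d2 or Usp2.

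The 12 genes with the smallest p and at least 5 CPM in the higher group had adjusted p values of 0.365 to 0.519; 9 were lower and 3 higher in runners. Since they were picked by their p, that all 12 had groups without overlap is no further evidence. Mylk2, the skeletal muscle myosin light chain kinase, lies at chromosome 2, 152911352 to 152923068. It read 351, 357 and 425 CPM in the controls and 254, 131, 221 and 248 CPM in the runners, lowest in runner 2. Its means were 378 ± 40.7 (SD, n = 3) and 213 ± 57.01 (SD, n = 4), and the log2 fold change was -0.82 ± 0.18 (SE, edgeR adjusted p = 0.365). In WT mice Mylk2 gave -0.49 ± 0.18 (edgeR adjusted p = 0.254).

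Jph2, junctophilin 2, which ties the sarcoplasmic reticulum to the transverse tubules, read 152, 148 and 169.8 CPM in the controls and 96.2, 95.005, 109 and 128 CPM in the runners. Ryr1, the calcium release channel of skeletal muscle, read 1423, 1241 and 1357 CPM in the controls and 1018, 793, 1060.4 and 945 CPM in the runners. For both genes every runner was below every control, and the log2 fold changes were -0.55 ± 0.15 and -0.49 ± 0.14 (SE, edgeR adjusted p = 0.519 for each). Of 18 calcium handling genes tested, 16 were below 0, 3 of them at an unadjusted p under 0.05, 4 had all runners below all controls, and 0 were called. Over all genes, 51.1% were above 0, 3.05% were lower at that p and 3.45% had all runners below all controls. The list median was -0.19, -0.14 without FLExDUX4 control 1 and -0.12 without runner 2. Casq2, the slow fibre calsequestrin, was counted among the slow contractile genes and not among these 18. It read 6.31, 9.72 and 7.59 CPM in the controls and 16.3, 36.9, 17.2 and 6.27 CPM in the runners, where runner 4 was below every control. For Casq2 the log2 fold change was 1.26 ± 0.49 (SE, edgeR adjusted p = 0.71), and 0.72 without runner 2. Camk2d, a calcium-dependent kinase, was higher in all runners than in all controls, as were 3.72% of all genes, with a log2 fold change of 0.56 ± 0.19 (edgeR adjusted p = 0.6).

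Among the other genes with the smallest p, Lonp1, the mitochondrial matrix protease, read 40.3, 29.2 and 35.8 CPM in the controls and 19.2, 25.3, 18.1 and 21.1 CPM in the runners. Rnmt, the mRNA cap methyltransferase, had a log2 fold change of -0.93 ± 0.25, and Ift20, an intraflagellar transport protein, of -0.89 ± 0.22. A330023F24Rik gave -1.10 ± 0.28. These 4 genes were lower in all runners. The 3 higher genes of the 12 were Tshz1, a zinc finger homeobox factor, at 0.75 ± 0.20, the regulatory light chain gene Myl12a at 0.56 ± 0.15, and Lpgat1, a lysophospholipid acyltransferase, at 0.85 ± 0.23. Lpgat1 read 20.3, 28.4 and 25.7 CPM in the controls and 38.5, 54.6, 44.9 and 42.3 CPM in the runners. Of these, Myl12a was also called in WT mice, where its log2 fold change was 0.75 ± 0.15 (edgeR adjusted p = 0.0263).

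**Figure D3:**
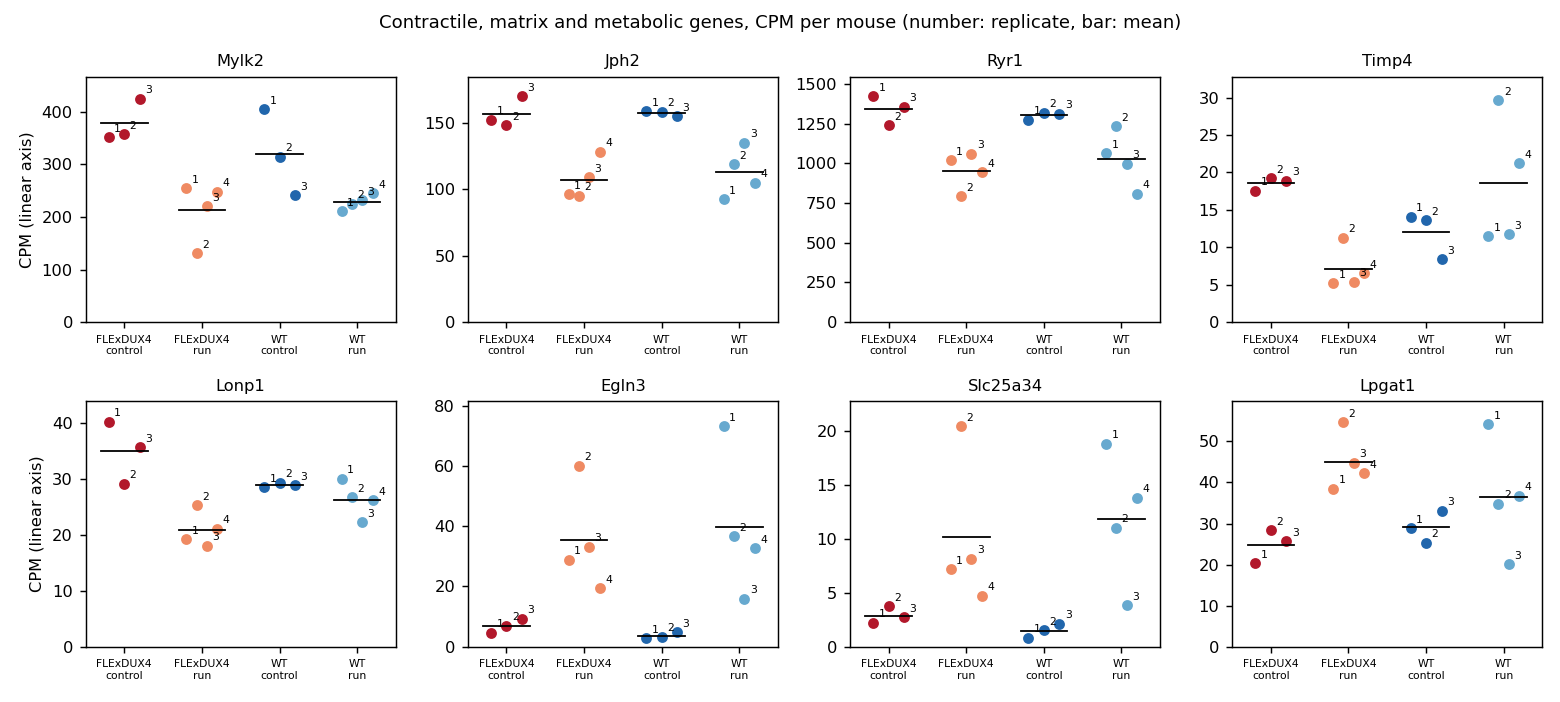
CPM per mouse on linear axes from 0 for 8 contractile, matrix and metabolic genes in the 4 groups, with points numbered by replicate and a bar at each group mean. Every FLExDUX4 runner lies below every FLExDUX4 control for Mylk2, Jph2, Ryr1, Timp4 and Lonp1 and above for Egln3, Slc25a34 and Lpgat1, and Timp4 in WT runners does not lie below WT controls.

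The adult myosins, which define fibre type, were displaced in 3 of the 4 runners. A 3′ tag is read per transcript end, so the myosins were compared without division by length. Myh4, the fastest myosin, made up 95.8, 93.1 and 94.9% of the 4 adult myosins in the controls and 83.6, 71.0, 88.4 and 96.5% in the runners. Runners 1 to 3 were below all controls and runner 4 was above them all. The difference was -9.75 percentage points (exact two-sided permutation test, p = 0.229, adjusted p = 0.612). Myh1, the IIX myosin, read 1049, 1490.4 and 1078 CPM in the controls and 2876, 3114, 2681 and 789 CPM in the runners. Myh2, the IIA myosin, read 461, 457 and 593 CPM in the controls and 1096, 1646, 755 and 186 CPM in the runners. Runners 1 to 3 were again above all controls and runner 4 below, and log2 fold changes were 0.97 ± 0.50 for Myh1 and 0.87 ± 0.82 for Myh2 (SE, edgeR adjusted p = 0.807 and 0.914). Without runner 4 they came to 1.26 and 1.21, and without runner 2 to 0.81 and 0.43. Myh4 itself gave -0.54 ± 0.28 (edgeR adjusted p = 0.799), and -0.34 without runner 2.

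Myh7, the slow myosin, was a minor transcript at 4.66, 6.73 and 36.3 CPM in the controls and 44.9, 40.4, 21.4 and 0.998 CPM in the runners. Its log2 fold change of 0.67 ± 1.27 turned to -0.40 under limma-voom, and the slow troponins Tnnt1 and Tnni1 also changed sign there, from 0.64 ± 1.19 to -0.69 and from 1.73 ± 1.28 to -0.99. Tnni1 read 1.10, 6.98 and 10.7 CPM in the controls and 23.3, 54.6, 11.1 and 0 CPM in the runners, the last with no read. The direction of the slow genes was therefore not settled by these 7 mice. Without FLExDUX4 control 1 the edgeR values were 0.27 for Myh7 and 0.31 for Tnnt1, and without runner 2 they were 0.08 for Tnnt1 and 0.79 for Tnni1. Of 14 slow contractile genes tested, 13 were above 0 in the edgeR fit, against 51.1% of all genes. At an unadjusted p under 0.05, 1 was higher, against 3.61% of all genes, and the list median was 0.70. That median was 0.43 without runner 2, 1.11 without runner 4, 0.39 without FLExDUX4 control 1 and 1.35 without FLExDUX4 control 3. Leaving out FLExDUX4 control 3 also gave larger edgeR values for Myh7, at 2.22, and for Tnni1, at 2.41.

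Of 17 fast contractile genes tested, 14 were below 0, with a median of -0.23, or -0.14 without runner 2. Mb, myoglobin, the oxygen store of oxidative fibres, read 762, 1387 and 1235 CPM in the controls and 2000.4, 3816, 1856 and 651 CPM in the runners. Runners 1 to 3 exceeded all controls and runner 4 was below them all. Its log2 fold change was 0.88 ± 0.58 (SE, edgeR adjusted p = 0.841), 0.41 without runner 2 and 1.18 without runner 4. In WT mice the same genes lay further apart: Mb read 356, 389 and 338 CPM in WT controls and 3794, 1687, 1173 and 4130.2 CPM in WT runners, and Myh2 read 79.5, 54.01 and 57.2 and 2349, 643, 149 and 1337 CPM. The WT controls were thus below every FLExDUX4 control for both genes, and the WT runners were above every WT control.

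**Figure D4:**
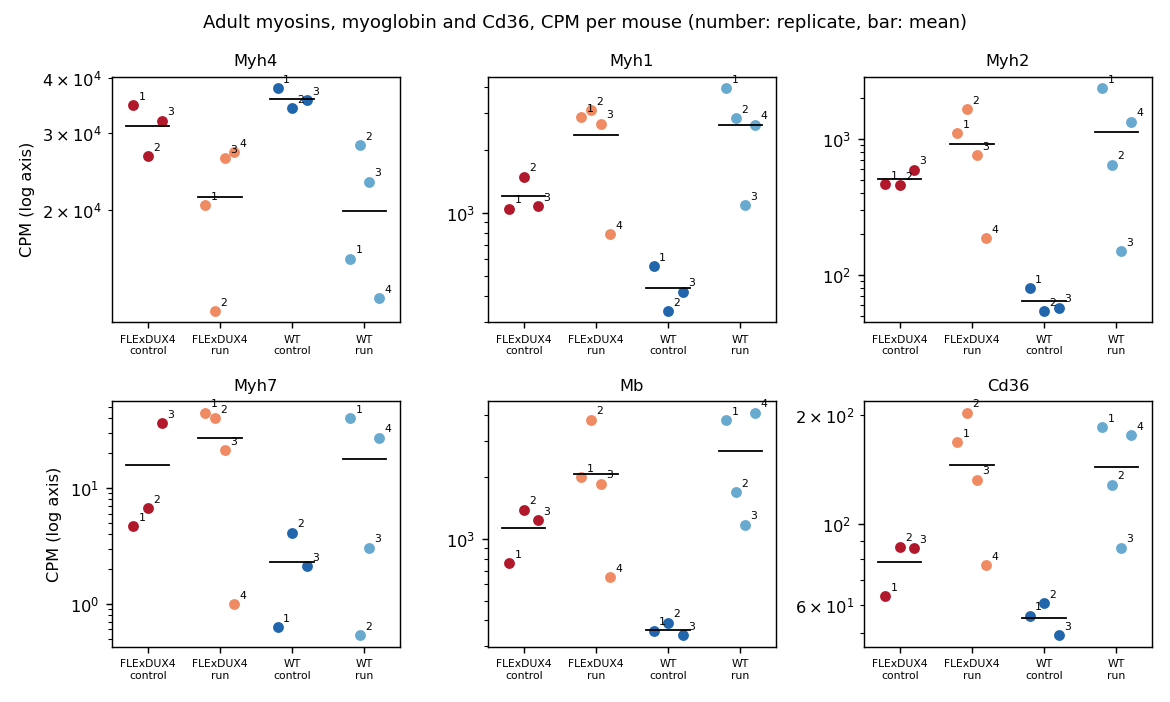
CPM per mouse on log axes for Myh4, Myh1, Myh2, Myh7, Mb and Cd36 in the 4 groups, with points numbered by replicate and a bar at each group mean. FLExDUX4 runners 1 to 3 lie above the FLExDUX4 controls for Myh1, Myh2, Mb and Cd36, runner 4 lies below them for Myh1, Myh2, Myh7 and Mb, and the WT controls lie lowest for Myh1, Myh2, Mb and Cd36.

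Nuclear genes of oxidative phosphorylation, the proton pumps and the ATP synthase of the inner mitochondrial membrane, were higher by small amounts across nearly the whole list, and 0 were called. Of 37 complex I genes tested, 35 were above 0 with a median of 0.18, against 51.1% above 0 among all genes. For complexes II and III it was 13 of 14 with a median of 0.21, for complex IV 13 of 14 with 0.28, and for the ATP synthase 17 of 17 with 0.30. At an unadjusted p under 0.05 and higher were 4, 2, 4 and 6 genes of these lists, against 3.61% of all genes. Without runner 2 the medians were 0.12, 0.09, 0.18 and 0.23, and without runner 4 they were 0.26, 0.27, 0.35 and 0.35. The transcripts move together within a mouse, so the members are not independent observations.

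Atp5g1, a c-ring subunit of the ATP synthase, read 156, 196 and 181 CPM in the controls and 216, 317, 292 and 175 CPM in the runners, with runner 4 among the controls. Its log2 fold change was 0.49 ± 0.17 (SE, edgeR adjusted p = 0.6), and in WT mice it was called at 0.84 ± 0.18 (edgeR adjusted p = 0.0292). Cox7a1, the muscle isoform of a complex IV subunit, gave 0.45 ± 0.18 and, in WT mice, 0.84 ± 0.18 (edgeR adjusted p = 0.706 and 0.0388). Ndufa1 of complex I and Sdhc of complex II gave 0.43 ± 0.15 and 0.37 ± 0.14. Ndufa1 came to 0.27 without FLExDUX4 control 1.

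Mitochondrially encoded transcripts took 28.8, 29.2 and 20.5% of gene counts in the controls and 32.6, 39.8, 33.6 and 26.6% in the runners. Runners 1 to 3 were above all controls and runner 4 was among them (exact two-sided permutation test, p = 0.143, adjusted p = 0.612). mt-Nd1, a complex I subunit, read 27774, 29750.3 and 24044 CPM in the controls and 39646, 40499, 41241 and 29973 CPM in the runners, with runner 4 just above the highest control. Its log2 fold change was 0.48 ± 0.17 (SE, edgeR adjusted p = 0.6). Of 8 mitochondrial genome transcripts tested, 7 were above 0. Ppargc1a, the coactivator that drives mitochondrial biogenesis, read 55.1, 78.5 and 82.5 CPM in the controls and 78.7, 73.5, 54.8 and 58.01 CPM in the runners, with overlapping groups and a log2 fold change of -0.12 ± 0.18, or -0.28 without FLExDUX4 control 1. Of 30 genes of mitochondrial biogenesis, 16 were above 0, and of 68 mitochondrial ribosomal protein genes 46 were. Nrip1, a corepressor of oxidative genes, was lower in all runners, at -0.68 ± 0.20 (edgeR adjusted p = 0.519).

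Fatty acid uptake and oxidation, the fuel route of endurance work, had a smaller median difference in FLExDUX4 than in WT mice. Of 27 genes tested, 22 were above 0 in FLExDUX4 mice with a median of 0.24, 4 at an unadjusted p under 0.05, and 0 were called. Over all genes, 51.1% were above 0 and 3.61% were higher at that p. In WT mice the median was 0.77, and 3 genes were called. The difference FLExDUX4 minus WT was below 0 for 27 of the 27, against 50.6% of all genes, with a median of -0.60. Of these, 8 had an unadjusted interaction p under 0.05, against 4.84% of all genes, and 0 an adjusted one. No gene of the list was therefore shown to differ between the genotypes. Without runner 2 the FLExDUX4 median was 0.08, and without FLExDUX4 control 1 it was 0.13.

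Cd36, the fatty acid translocase, read 63.4, 86.5 and 85.9 CPM in the controls and 168, 203, 132 and 76.96 CPM in the runners, with runner 4 among the controls. Its log2 fold change was 0.88 ± 0.32 (SE, edgeR adjusted p = 0.71). Hadhb, the beta subunit of the trifunctional protein of beta oxidation, gave 0.02 ± 0.21 in FLExDUX4 mice, a value that changed sign under limma-voom, and 1.02 ± 0.22 in WT mice (edgeR adjusted p = 0.995 and 0.0411). Its difference between genotypes was -0.997 ± 0.30 (edgeR interaction adjusted p = 0.954). Slc25a20, the carnitine-acylcarnitine carrier, gave 0.47 ± 0.20 and, in WT mice, 1.08 ± 0.21. Plin5, a lipid droplet coat protein, read 7.13, 6.73 and 7.46 CPM in FLExDUX4 controls, 10.1, 15.6, 6.62 and 4.70 in FLExDUX4 runners, 1.26, 3.02 and 2.11 in WT controls and 15.04, 13.9, 3.25 and 12.9 in WT runners. The FLExDUX4 controls were above every WT control for Plin5. Slc25a34, an orphan mitochondrial carrier, was above all controls in all runners, at 2.19, 3.74 and 2.70 and 7.19, 20.5, 8.13 and 4.70 CPM, with a log2 fold change of 1.78 ± 0.51 (SE, edgeR adjusted p = 0.519).

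Carbohydrate genes lay nearer to the median of all genes. Of 24 glycolysis genes, 14 were above 0 with a median of 0.02, of 16 glycogen genes 5 were above 0 with a median of -0.14, and of 27 genes of pyruvate entry and the TCA cycle 19 were above 0 with a median of 0.11. Called genes numbered 0 in each list.

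Egln3, a prolyl hydroxylase that marks hypoxia-inducible factors for breakdown, was the 1 gene called higher in runners in the authors' deposited table. It is annotated at chromosome 12, 54178981 to 54203860. Egln3 read 4.66, 6.98 and 9.26 CPM in the controls and 28.8, 60.02, 33.1 and 19.4 CPM in the runners. The lowest runner was above the highest control, and the means were 6.97 ± 2.30 (SD, n = 3) and 35.3 ± 17.4 (SD, n = 4). The log2 fold change was 2.28 ± 0.54 (SE, edgeR adjusted p = 0.519), and the authors' deposited table gives 1.52 with an adjusted p of 7.4e-05. In WT mice the gene was called at 3.48 ± 0.60 (edgeR adjusted p = 0.0411), and the genotypes differed by -1.20 ± 0.80 (edgeR interaction adjusted p = 0.976).

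Of 15 hypoxia genes tested, Egln3 included, 8 were above 0 and 7 below, with a median of 0.18, or 0.05 without FLExDUX4 control 1. At an unadjusted p under 0.05, 2 were higher, Egln3 and its relative Egln1, at 0.34 ± 0.17 (SE, edgeR adjusted p = 0.748), which was named after its values were seen. Over the 14 genes other than Egln3 the median was 0.05. Vegfa, the main angiogenic ligand, read 44.2, 61.6 and 93.4 CPM in the controls and 86.5, 79.7, 66.2 and 71.4 CPM in the runners, with overlapping groups and a log2 fold change of 0.18 ± 0.42 that came to -0.0349 without FLExDUX4 control 1. Kdr, its receptor on endothelium, read 37.3, 26.2 and 36.4 CPM against 53.8, 67.01, 43.96 and 37.9 CPM, with all runners above all controls and a log2 fold change of 0.60 ± 0.25 (SE, edgeR adjusted p = 0.71). Pdgfb, a ligand that recruits pericytes, was also higher in all runners, at 7.41, 7.48 and 6.82 CPM in the controls and 12.8, 15.6, 15.7 and 14.1 CPM in the runners. Its log2 fold change was 1.01 ± 0.29 with an edgeR adjusted p of 0.519.

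Endothelial markers as a list lay at the median of all genes in FLExDUX4 mice: 11 of 21 were above 0, with a median of 0.03, against a median of 0.79 in WT mice. The difference FLExDUX4 minus WT was below 0 for 20 of the 21, against 50.6% of all genes. Of the 21, 4 had an unadjusted interaction p under 0.05, against 4.84% of all genes, and 0 an adjusted one. Pecam1, an adhesion molecule of endothelium, read 25.8, 34.4 and 36.1 CPM in the controls and 44.3, 47.6, 43.1 and 17.96 CPM in the runners, where runner 4 alone was below all controls. In bulk muscle, fewer cells of a type and less RNA per cell cannot be told apart. Haemoglobin transcripts, which come from red cells, were lowest in the same runner: Hba-a2 read 86.97, 96.9999 and 79.9 CPM in the controls and 150.5, 179, 140.3 and 49.6 CPM in the runners. The summed level of 7 erythroid markers was 673 to 991 CPM in the controls and 478 to 1743 CPM in the runners, and its part in the other results was not tested.

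Matrix genes split by gene. Timp4, an inhibitor of matrix metalloproteinases, is annotated at chromosome 6, 115241892 to 115252205. It read 17.6, 19.2 and 18.9 CPM in FLExDUX4 controls, 5.25, 11.3, 5.42 and 6.56 in FLExDUX4 runners, 14.1, 13.6 and 8.42 in WT controls and 11.5, 29.7, 11.8 and 21.2 in WT runners. All FLExDUX4 runners were below all FLExDUX4 controls, with no such order in WT mice. The log2 fold changes were -1.39 ± 0.32 in FLExDUX4 mice and 0.61 ± 0.32 in WT mice (SE, edgeR adjusted p = 0.437 and 0.513), and the difference was -2.004 ± 0.45 (edgeR interaction adjusted p = 0.488). Timp3, its relative, was lower in all FLExDUX4 runners, at -0.75 ± 0.22 (edgeR adjusted p = 0.6).

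Col1a1, the main fibrillar collagen, read 119.9, 81.8 and 81.6 CPM in the controls and 82.03, 137, 97.6 and 68.3 CPM in the runners, and its log2 fold change of 0.02 ± 0.20 changed sign under limma-voom and was 0.23 without FLExDUX4 control 1. Of 32 collagen and matrix genes 21 were above 0, with a median of 0.07, or 0.17 without that mouse. Of 9 tendon genes tested 7 were below 0, and the summed level of 12 tendon markers was 124 to 241 CPM in the controls and 95.1 to 223 CPM in the runners. Tnmd, tenomodulin, gave -0.85 ± 0.42, and the tendon matrix genes Chad and Thbs4 gave -0.38 ± 0.43 and -0.06 ± 0.24, the last with a sign that changed without FLExDUX4 control 1 or without runner 4. Of 14 fibroblast and fibro-adipogenic progenitor markers 10 were above 0, and Pi16 among them was higher in all runners at 0.996 ± 0.44 (edgeR adjusted p = 0.71).

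Immune and stem cell genes were sparse. Of 15 macrophage genes tested 10 were above 0, with a median of 0.39 and 0 at an unadjusted p under 0.05. Cd68, a macrophage lysosomal protein, read 1.10, 0.997 and 0.900 CPM in the controls and 2.33, 2.15, 0.602 and 1.85 CPM in the runners. S100a8, a neutrophil protein, had no read in FLExDUX4 controls 1 and 2 and read 2.33, 4.84, 2.11 and 2.57 CPM in the runners. Of 9 neutrophil markers 6 had no count in any FLExDUX4 library, among them Ly6g, Mpo and Elane, and their sum was 0.249 to 3.86 CPM in the controls and 3.61 to 13.2 CPM in the runners. Of 12 lymphocyte markers 1 was tested. Pax7, the satellite cell factor, read 3.02, 6.48 and 3.86 CPM in the controls and 2.53, 2.69, 0.301 and 5.99 CPM in the runners. Of 8 satellite cell genes tested 6 were above 0, with a median of 0.44, or 0.66 without FLExDUX4 control 1, and the summed level of the list was 36.8 to 39.4 CPM in the controls and 37.9 to 60.6 CPM in the runners.

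Most stress and protein turnover lists lay close to the median of all genes. Cryab, a small heat shock protein of the Z-disc, read 561, 779.7 and 699 CPM in the controls and 1199.9, 1566, 974 and 756 CPM in the runners, with runner 4 among the controls and a log2 fold change of 0.72 ± 0.24 (SE, edgeR adjusted p = 0.612). Of 8 small heat shock genes 7 were above 0, with a median of 0.19. Of 31 proteasome genes 21 were below 0, with a median of -0.05, and Psmc5, an ATPase of the regulatory particle, was lower in all runners at -0.68 ± 0.19 (edgeR adjusted p = 0.519). Medians were -0.01 for 19 genes of the unfolded protein response, -0.02 for 27 antioxidant genes and -0.07 for 23 autophagy genes.

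The atrophy ligases did not separate the groups. Trim63 read 218, 307 and 140.0 CPM in the controls and 219, 157, 238 and 303 CPM in the runners, and Fbxo32 read 428, 499 and 378 and 414, 379, 440.5 and 481 CPM. Both overlapped fully, at log2 fold changes of 0.06 ± 0.29 and -0.02 ± 0.17, and the sign of each changed when single mice were left out and, for Fbxo32, with spike-in library sizes. Foxo4, a forkhead factor of the same pathway, was lower in all runners, at 35.1, 33.9 and 43.995 CPM against 30.1, 15.1, 28.001 and 22.9 CPM (log2 fold change -0.65 ± 0.21, edgeR adjusted p = 0.6). Irs2, an insulin receptor substrate, gave -0.99 ± 0.32, with FLExDUX4 control 2 at 59.3 CPM far above the other mice, and -0.37 without that control. Cdkn1a, a cell cycle inhibitor, read 15.1, 28.2 and 10.03 CPM in the controls and 14.8, 34.2, 24.7 and 30.5 CPM in the runners. Of 17 p53 target genes 8 were above 0, with a median of -0.01, or -0.12 without FLExDUX4 control 1.

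Of the immediate early genes, 14 of 21 were below 0 with a median of -0.20, or -0.43 without FLExDUX4 control 1. Without FLExDUX4 control 2 the median was 0.38, so the sign of the list median rested on that mouse. Nr4a3, an activity-induced nuclear receptor, read 1.10, 29.2 and 16.98 CPM in the controls and 0.389, 1.08, 0 and 3.42 CPM in the runners. FLExDUX4 control 1 was within the range of the runners for this gene, so the log2 fold change of -3.48 ± 1.35 (SE, edgeR adjusted p = 0.71) rests on controls 2 and 3.

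Genes listed as responsive to DUX4 in mouse muscle could hardly be read. Of 7 such genes 2 had enough counts to test. Sord, sorbitol dehydrogenase, read 44.2, 36.9 and 41.6 CPM in the controls and 61.4, 58.1, 51.8 and 43.5 CPM in the runners, with a log2 fold change of 0.39 ± 0.18 (SE, edgeR adjusted p = 0.722). Ilvbl gave 0.07 ± 0.40, with a sign that changed under limma-voom. Of the 13 genes of the mouse Dux network in the table, 0 had enough counts to test. Of 10 tested genes that silence the DUX4 locus in people, 8 were below 0, with a median of -0.12. Of these, 0 had an unadjusted p under 0.05, and the WT median was -0.09. Over all genes, 51.1% were above 0.

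Set beside WT mice, running was followed by smaller differences at the genes that WT mice showed. In WT mice 55 genes were called (0.496%), 44 higher and 11 lower. These 55 were chosen by their WT values, which makes the WT side larger by construction. In FLExDUX4 mice 49 of the 55 had the same sign, 21 had an unadjusted p under 0.05 and 0 were called. Over all genes, 6.66% had an unadjusted p under 0.05 in FLExDUX4 mice, and the share with the same sign in both genotypes was not counted. The 44 higher genes had a median log2 fold change of 1.04 in WT and 0.32 in FLExDUX4 mice, and the 11 lower genes -0.80 and -0.30. The test of the difference itself, the interaction of genotype and running, called 0 of all 11088 genes (0.0%), with a smallest adjusted p of 0.199 and 537 unadjusted p values under 0.05 (4.84%). Among the 55 genes 29 had an unadjusted interaction p under 0.05. The WT difference that picked these genes is part of the interaction, so that count is raised by construction and is no further evidence.

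Control levels lay apart between the genotypes for Myom3 and Hspb7, both named after their values were seen. No test between the control groups was run, and the share of all genes with this order was not counted. Low WT controls enlarge a WT running difference, so genes that stand out in WT mice favour such an order. Myom3, an M-band protein of slower fibres, read 10.7, 9.48 and 14.8 CPM in FLExDUX4 controls, 16.9, 28.3, 15.4 and 7.41 in FLExDUX4 runners, 0.841, 1.30 and 0.301 in WT controls and 42.2, 14.7, 5.68 and 19.8 in WT runners. The runners of the genotypes overlapped, and every FLExDUX4 control was above every WT control. Hspb7, a small heat shock protein, had the same order, at 23.05, 39.4 and 41.9, 61.04, 99.6, 35.8 and 39.1, 12.8, 20.96 and 15.3 and 100.3, 81.9, 50.6 and 82.998 CPM in these groups.

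The smallest interaction p belonged to Pim3, a serine/threonine kinase. It read 39.2, 71.6 and 33.4 CPM in FLExDUX4 controls, 25.1, 34.2, 31.3 and 27.1 in FLExDUX4 runners, 24.6, 18.1 and 15.6 in WT controls and 27.5, 53.5, 45.3 and 34.9 in WT runners. Every WT runner was above every WT control, while FLExDUX4 runner 2 lay among the FLExDUX4 controls and the other FLExDUX4 runners were below them. The log2 fold changes were -0.71 ± 0.24 in FLExDUX4 mice, or -0.30 without FLExDUX4 control 2, and 1.04 ± 0.25 in WT mice, and the difference was -1.75 ± 0.35 (SE, edgeR interaction adjusted p = 0.199). Timp4 came next, followed by AC153524.3, Hmgb1-ps8 and Pmm2, with differences of -4.27 ± 1.01, 1.38 ± 0.35 and -2.26 ± 0.58 and edgeR interaction adjusted p values of 0.573, 0.708 and 0.708. Hmgb1-ps8 is a pseudogene that shares sequence with its parent, so its counts are uncertain. The interaction of Pim3 was called without WT runner 1, without FLExDUX4 control 3 or with spike-in library sizes, and that of Myom3 without WT runner 3.

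**Figure D5:**
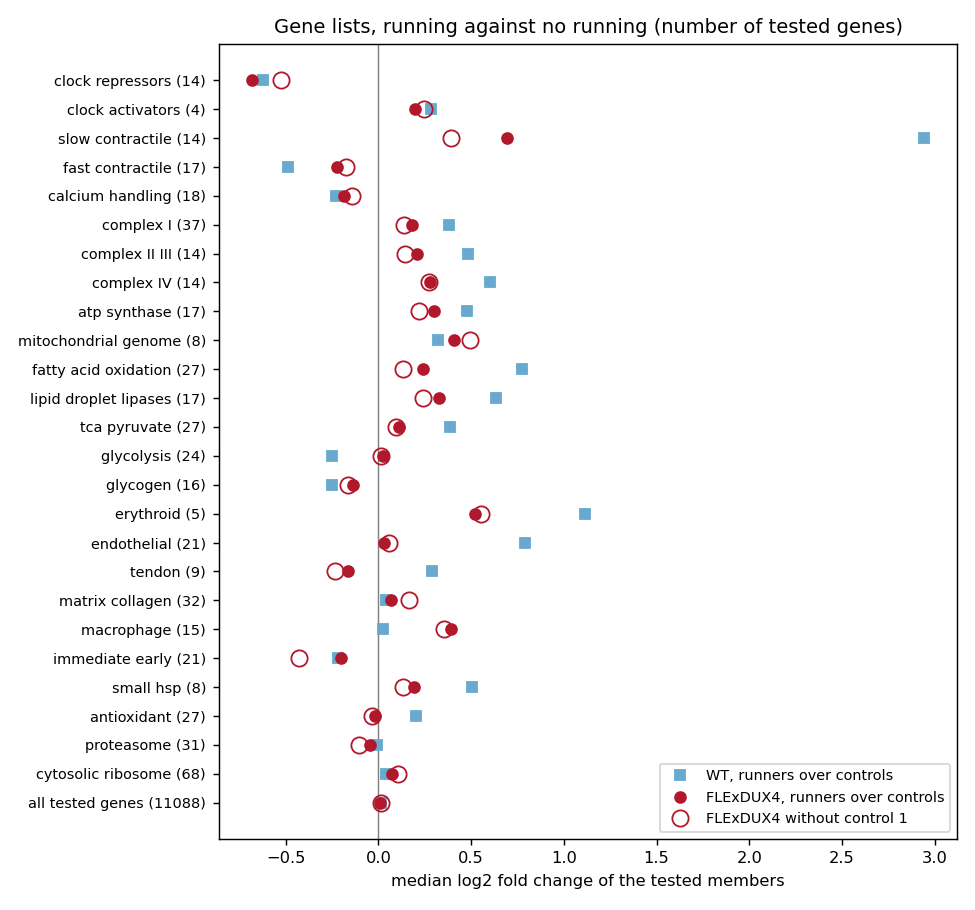
Median log2 fold change of running against no running over the tested members of 25 gene lists and over all tested genes, with the number of tested genes in brackets. Filled circles are FLExDUX4 mice, open circles FLExDUX4 mice without control 1, and squares WT mice. Clock repressors lie at -0.68 in FLExDUX4 and -0.62 in WT mice, while slow contractile genes lie at 0.70 and 2.94 and endothelial genes at 0.03 and 0.79.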

How the data were processed

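Triceps RNA of 14 male mice was sequenced as QuantSeq 3′ mRNA libraries, per the labels' protocols. Per the submitters' processing notes, which give no roles, the tools included STAR 2.5.3a, featureCounts 1.6.2, cutadapt 1.16 and DESeq2, and the builds GRCh38 and GRCm38. The authors deposited raw read counts per gene and mouse and their summed counts per group. Per the file headers, their own comparisons follow as a log2 fold change with its error, a test score and p-values. Annotation release, strand and multi-mapping settings are not given in the sources used here, so overlapping genes and gene copies cannot be told apart.

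Counts of 52550 genes were used, and 99 spike-in rows (92 ERCC, 7 SIRV) stayed out of library sizes. With R 4.3.3 and edgeR 4.0.16, genes passing filterByExpr (minimum count 10) were fitted by the robust quasi-likelihood test with TMM factors and 1 mean per group over all 14 libraries, then adjusted by Benjamini-Hochberg at 0.05. The common biological coefficient of variation was 0.288. The SE of an edgeR log2 fold change is its absolute value divided by the square root of the quasi-likelihood F statistic. It is thus derived from the test and is not a separate estimate by edgeR. The fit was tested on simulated data. For running in FLExDUX4 mice it recovered 6 of 67 genes changed 1.5-fold, 20 of 67 changed 2-fold and 43 of 66 changed 4-fold. Of 10548 genes left unchanged, it called 6. DESeq2 1.42.0 and limma-voom (limma 3.58.1) were alternatives, among other scalings, filters and left-out mice. Per-mouse measures were compared by exact permutation over 35 splits. Gene coordinates are from the GENCODE annotation of GRCm38, matched by gene ID: 52403 IDs were found, 96.5% of them with the start given in the deposited table. Replicate numbers follow accession order and pair nothing.

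Genes named are the 12 smallest p values with at least 5 CPM in the higher group, the smallest p of each of 60 gene lists with a tested gene, a fixed set of muscle genes, the 5 smallest interaction p values, and 36 genes named after their values were seen. Members, lists and rules were chosen with earlier results of these data known.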

Additional observations from a re-analysis of the deposited data

Results flagged for a closer look

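Among the 134 sets of 4 FLExDUX4 runners examined, 8 held a mouse far from the other 3, and chance alone gives about 1 in 20. Runner 2 was highest for Myl12a at 350 CPM (others 249.8 to 262) and for S100a8 at 4.84 CPM (others 2.11 to 2.57), and lowest for Me1, malic enzyme, at 40.9 CPM (others 76.8 to 80.99). Runner 4 was lowest for mt-Nd1 at 29973 CPM (others 39646 to 41241) and for Pecam1 at 17.96 CPM (others 43.1 to 47.6). Runner 1 was lowest for Gadd45a, a stress-induced growth arrest gene, at 1.94 CPM (others 3.91 to 4.28) and highest for AC153524.3 at 2.72 CPM (others 1.14 to 1.35). Runner 3 was lowest for Ift20 at 10.2 CPM (others 17.5 to 18.8).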

How the results depend on the processing

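The count of 0 genes called for running in FLExDUX4 mice became 24 with no filter on low counts and 6 in a fit of the 7 FLExDUX4 libraries alone (of 9770 genes, 0.0614%: Cep85l, Egln3, Per1, Per2, Tef and Usp2). The fit with no filter held the 20938 genes with 1 count or more. Leaving out 1 mouse at a time gave 0 to 2, the 2 being Egln3 and Tef without WT runner 1. The WT mice were left out after seeing the data. The interaction count of 0 became 1 with spike-in library sizes (Pim3), 11 with no filter, and 0 to 1 with 1 mouse left out: Pim3 without WT runner 1 or without FLExDUX4 control 3, and Myom3 without WT runner 3. The cause was not tested. No paired analysis was possible because the labels give no replicate numbers that link mice across groups.

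Of 119 named genes, 105 kept their direction under every alternative run, 14 reversed under at least 1, and 17 were called under at least 1. Many of them were named for a small p or after their values were seen, which raises the count of 17. The share of all tested genes called under at least 1 alternative was not counted. Under limma-voom the log2 fold change was -0.40 for Myh7, -0.69 for Tnnt1, -0.99 for Tnni1, -0.0101 for Col1a1, -0.14 for Ilvbl and -0.0244 for Hadhb. With spike-in library sizes it was 0.00505 for Fbxo32. With 1 mouse left out, log2 fold changes that reversed ranged from -0.12 to 0.30 for Ighm, -0.32 to 0.0016 for Atf4, -0.0349 to 0.52 for Vegfa, -0.19 to 0.23 for Col1a1, -0.16 to 0.31 for Ilvbl, -0.16 to 0.13 for Hadhb, -0.0024 to 0.60 for Plin5, -0.37 to 0.0112 for Ppara, -0.19 to 0.13 for Thbs4, -0.19 to 0.37 for Trim63 and -0.11 to 0.10 for Fbxo32. Differences in mean log2(CPM + 1) that reversed ranged from -0.0580 to 0.11 for glycolysis, -0.0484 to 0.15 for endothelial, -0.0621 to 0.39 for erythroid and -0.50 to 0.0882 for adipocyte genes.

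At 3439957 to 6995811 gene counts per FLExDUX4 library, 3 counts are 0.429 to 0.872 CPM, which limits Ciart, Per2, Tnni1, Cd68, S100a8 and the immune lists. These figures cover counting error only.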
